A study of Mus musculus with 6 samples.

Results

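Acinar transcription factors are the DNA-binding proteins that make and keep the enzyme-secreting cell of the exocrine pancreas. The set holds 8 mouse genes, Ptf1a, Rbpjl, Bhlha15, Nr5a2, Gata4, Gata6, Mnx1 and Xbp1. They were chosen with earlier results of these data known. The set's members on the array are all probes whose transcript accession belongs to any of these genes. These came to 11 of the 56605 probes and to 8 of the 23462 named genes. Of the 11 probes, 9 probes of 7 genes were bright enough to be tested; no level is given for Mnx1 or for one of the 2 Gata4 probes.

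Per the labels, RNA came from acinar cells isolated from the pancreas of C57BL/6 mice and was hybridised to 6 one-colour arrays. The group called KC (3 arrays) carried Ptf1aCre, which expresses Cre recombinase in Ptf1a-lineage cells of the pancreas, with an oncogenic allele that is silent until Cre removes a stop flanked by loxP sites. The group called KCS (3 arrays) carried the same alleles together with Setdb1flox/flox, so that Cre also removes a loxP-flanked stretch of Setdb1, a histone H3 lysine 9 methyltransferase. Both groups therefore carried Cre at Ptf1a and the oncogenic allele, and no array held cells without them. The labels give no age and do not say whether the Cre allele takes the place of a copy of Ptf1a, which would touch the first member in both groups alike. They also do not say whether the 3 samples of a group came from separate mice, so the p-values measure the spread between these samples, which may be technical. The question the design puts is how acinar cells of the same oncogenic background differ when Setdb1 is deleted.

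In the adult acinar cell these factors work as a network. PTF1A is a basic helix-loop-helix protein that joins a common E protein (TCF3, TCF4 or TCF12) and RBPJL, an acinar paralogue of the Notch pathway factor RBPJ, to form PTF1, the complex that drives the genes of the digestive enzymes. NR5A2 is a nuclear receptor that binds many of the same genes, BHLHA15 (also called MIST1) sets up the granules and the secretory polarity of the cell, and XBP1, activated by IRE1 splicing, expands the endoplasmic reticulum. GATA4 and GATA6 are zinc finger factors of the early pancreas, and MNX1 is a homeodomain factor of the pancreatic bud and of beta cells.

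The start regions of the 4 factors with the largest differences below are shown because the network's own motifs can be read in them. They are the 250 bases before each start in RefSeq (mouse build GRCm38.p6, strand of the gene). RefSeq windows matched 6 of the 8 genes, 7 windows in all, since Nr5a2 had 2 starts. Gata4 and Gata6 had no entry. The array's header names an older build, so no position of a probe is given. Capitals mark matches, on either strand, to the E-box CACCTG, the RBPJ-type core TGGGAA or the GATA motif AGATAA.
Ptf1a, chr2:19445413-19445662, plus strand: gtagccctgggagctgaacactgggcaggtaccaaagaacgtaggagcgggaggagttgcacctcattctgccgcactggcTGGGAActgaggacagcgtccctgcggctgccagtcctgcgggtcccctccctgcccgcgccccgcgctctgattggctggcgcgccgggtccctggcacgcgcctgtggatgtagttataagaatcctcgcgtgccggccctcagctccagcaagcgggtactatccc
Rbpjl, chr2:164402944-164403193, plus strand: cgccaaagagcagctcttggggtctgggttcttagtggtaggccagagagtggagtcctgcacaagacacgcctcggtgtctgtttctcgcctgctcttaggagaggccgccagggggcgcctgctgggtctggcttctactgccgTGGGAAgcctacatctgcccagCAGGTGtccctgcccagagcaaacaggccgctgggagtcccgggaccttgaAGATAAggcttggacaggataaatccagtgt
Bhlha15, chr5:144190036-144190285, plus strand: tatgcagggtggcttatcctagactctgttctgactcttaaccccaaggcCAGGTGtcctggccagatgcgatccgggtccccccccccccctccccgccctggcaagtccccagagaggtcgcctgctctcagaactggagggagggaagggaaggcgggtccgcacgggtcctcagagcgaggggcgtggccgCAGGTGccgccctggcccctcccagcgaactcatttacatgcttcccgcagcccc
Nr5a2, chr1:136953631-136953880, minus strand: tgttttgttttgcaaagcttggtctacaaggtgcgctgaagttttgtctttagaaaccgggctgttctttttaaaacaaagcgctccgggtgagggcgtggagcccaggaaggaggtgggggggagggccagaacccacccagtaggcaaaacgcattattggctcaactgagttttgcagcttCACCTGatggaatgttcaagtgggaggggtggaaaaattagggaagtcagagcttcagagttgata
Nr5a2, chr1:136960449-136960698, minus strand: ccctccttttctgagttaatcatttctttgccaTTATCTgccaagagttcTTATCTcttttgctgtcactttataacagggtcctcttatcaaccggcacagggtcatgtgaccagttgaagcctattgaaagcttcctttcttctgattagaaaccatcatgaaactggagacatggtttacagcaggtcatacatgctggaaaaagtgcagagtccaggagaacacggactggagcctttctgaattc

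The Rbpjl window held all 3 motifs, TGGGAA beginning 104 bases before the start, CAGGTG, which is the first of these motifs read on the opposite strand, at 82 bases and AGATAA at 31 bases. The Ptf1a window held TGGGAA at 169 bases. CAGGTG stood at 200 and 55 bases before the start of Bhlha15, CACCTG at 66 bases before one Nr5a2 start, and TTATCT, the other strand of AGATAA, at 217 and 200 bases before the other. Of the windows not shown, Mnx1 had CAGGTG at 235 bases, and Xbp1 had TTCCCA at 135 bases overlapping CAGGTG at 131 bases, and TGGGAA at 66 bases. Such matches are common: among 32851 windows of this length, 17.2% held CACCTG, 21.6% held TGGGAA and 9.99% held AGATAA. The motifs CAGCTG (in 13% of the windows), CATATG (3.46%), the NR5A core AAGGTCA (4.08%) and the core ACGTG (16.6%) were searched too and stood in none of the 7. A match is a stretch of letters, not a bound site.

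Values are log2 processed signals minus the 75th percentile of their own array, so that 0 is the level of a moderately bright probe and a difference of 1 is a doubling. Errors after ± are standard errors of the fit unless named SD. That percentile was a signal of 61.2 to 68.6 in KC and of 347 to 423 in KCS, and 26550 to 27237 probes were well above background in KC against 35366 to 35920 in KCS. Arrays of 1 group correlated at 0.947 or more over all tested probes, and arrays of different groups at 0.838 or less. At an adjusted p of 0.05 by limma, 11140 of the 34485 probes tested were lower in KCS (32.3%) and 9233 were higher (26.8%). The groups did not overlap at 67.3% of the probes tested. Among 16257 named genes, each at its brightest probe, 29.2% were lower and 32.5% higher. The split turns with the scaling: median centring gave 8258 lower and 12132 higher, quantile normalisation 9457 and 10420, and scaling to the spike-in RNAs 873 and 30646. Spike-in scaling moved the median of all probes from -0.12 to 2.78, so lower and higher are used here relative to the bulk of the probes on the array.

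Relative to that scale, 6 of the 7 tested factors fell in KCS and none rose. Ptf1a, Rbpjl and Bhlha15 had differences (KCS minus KC) of -9.63 to -8.71 log2 units, Nr5a2 and Gata4 of -3.46 and -2.92, and the 3 probes of Xbp1 of -1.50 to -0.94. Gata6 did not pass the test. Counted by probe, 8 of 9 fell, where 32.3% of all probes did. At the same 8 every KC array lay above every KCS array, where 67.3% of all probes had groups that did not overlap in one direction or the other. The median over the 7 genes was -3.46, beside 0.07 over all named genes. With spike-in scaling 3 of the factors fell, Ptf1a, Rbpjl and Bhlha15. On that scale Gata6 was called higher (2.75, limma adjusted p = 9.12e-06). So were all 3 Xbp1 probes, by 1.40 to 1.95 (adjusted p of 0.000929 or less). The median of all probes was 2.78 there. The KCS arrays were not alike: replicate 3 was the highest KCS array at all 9 tested probes. Without it the same 6 factors fell.

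**Figure D1:**
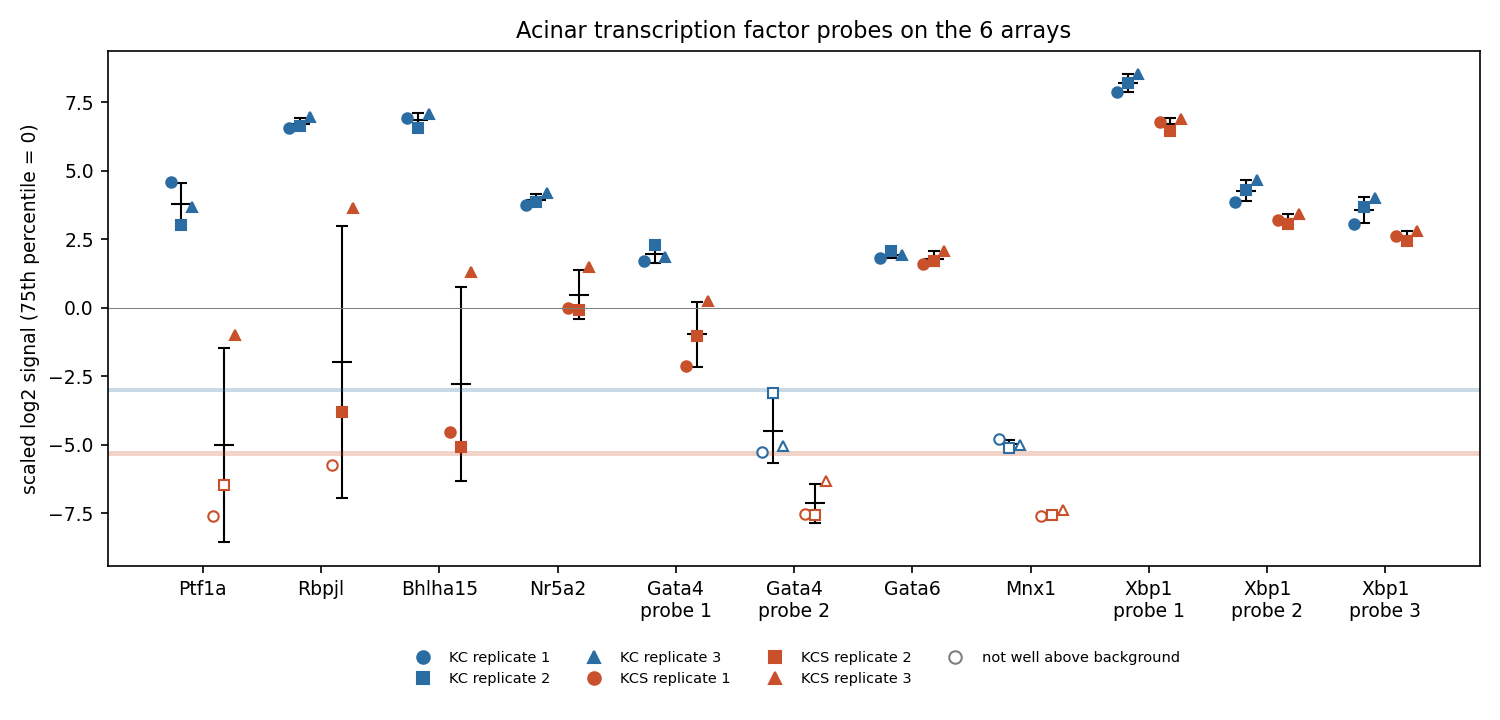
Scaled log2 signal (vertical axis, 0 is the 75th percentile of the array) of the 11 probes on the 3 KC arrays (blue) and the 3 KCS arrays (orange), with a bar at each group's mean and whiskers of 1 SD. Open symbols are spots not well above background, and the shaded bands mark the lowest signal well above background in each group. The probes of Gata4 and Xbp1 stand in the order in which the text gives them. On this scale KCS arrays lie below KC arrays at all 8 tested probes other than Gata6, and KCS replicate 3 is the highest KCS array at all 9 tested probes.

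Ptf1a, the defining subunit of PTF1, was measured by 1 probe (A_51_P226711). Its scaled log2 values were 4.61, 3.02 and 3.69 in KC replicates 1 to 3 and -7.62, -6.48 and -0.99 in KCS replicates 1 to 3. All 3 KC arrays were high, and KCS replicates 1 and 2 were not well above background, so their values are bounds: Ptf1a lay at least 582-fold and at least 580-fold below the KC mean there. In KCS replicate 3 it was measured, at 4.76 log2 units below the KC mean. The fitted difference was -8.80 ± 1.65 (SE, n = 3 and 3; adjusted p = 0.00409; 95% interval -12.75 to -4.85). It takes the dim spots at their measured values and is therefore no exact size. Slide 2, with 2 arrays of each group, gave -7.09, which takes the dim spot of KCS replicate 2 at its measured value and is no exact size either. Slide 1, with 1 of each, gives only the bound of KCS replicate 1.

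Rbpjl, the acinar partner of PTF1A in the complex, gave scaled log2 values of 6.58, 6.64 and 6.96 in KC (A_52_P574759). The KCS values were -5.76, -3.81 and 3.63. The SD over the KC arrays was 0.20, while KCS arrays spanned 9.39 log2 units from replicate 1, not well above background, to replicate 3. Rbpjl fell by 8.71 ± 2.24 (SE; adjusted p = 0.0149; interval -14.09 to -3.32). The call rests on how the spread is handled: without KCS replicate 2 the difference was -7.79 with an adjusted p of 0.0519. Slide 2 alone gave -6.89 with an adjusted p of 0.0709, and moderation with a trend and robust variances gave 0.0508. Slide 1, with 1 array a group, gives only a bound, Rbpjl in KCS replicate 1 lying at least 4508-fold below the KC mean.

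The ratio of the 2 subunits on the same array, which multiplying a whole array by a factor does not change, could be read in KCS only on replicate 3, where both probes were well above background. Set against the KC mean, the ratio of Ptf1a to Rbpjl was -1.67 log2 units there and between -0.67 and 0.98 in KC; 1 array gives no test. RBPJ, the widely expressed paralogue that can take the place of RBPJL in PTF1, rose by 1.39 ± 0.16 (adjusted p = 0.00057). The ratio of Rbpjl to Rbpj lay at -11.92 and -4.42 log2 units from the KC mean in KCS replicates 2 and 3, and in replicate 1, where Rbpjl was not well above background, it has only a bound. The exact test over the 6 arrays, with that spot at its measured value, gave p = 0.1, the smallest that 3 against 3 arrays allow (0.15 adjusted over the 3 gene pairs compared in this way).

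Bhlha15 encodes MIST1, which scales up the secretory apparatus. Its probe (A_52_P340669) read 6.92, 6.58 and 7.06 in KC and -4.53, -5.09 and 1.30 in KCS on the scaled log2 axis. Every one of the 6 arrays was well above background, so both sides were measured. In raw processed signal, that was 6574 to 8161 in KC against 17, 12.5 and 857 in KCS replicates 1 to 3. The difference was -9.63 ± 1.61 (SE, limma adjusted p = 0.00257), a 790-fold ratio when taken from the means of the scaled log2 values. Single KCS arrays were not near that size, at -11.38, -11.94 and -5.55 from the KC mean in replicates 1 to 3. KCS replicate 2, at -5.09, stood close to its lowest signal well above background (-5.41). The fitted difference was -11.45 on slide 1 and -8.71 on slide 2, and leaving out any 1 array kept it between -11.66 and -8.47. The differences of Ptf1a, Rbpjl and Bhlha15 lay within 1 SE of each other, so the 3 have no order.

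Nr5a2, the nuclear receptor that cooperates with PTF1, had an SD of 0.89 over the KCS arrays, against 3.54 for Ptf1a and Bhlha15 (A_51_P514449). Its scaled log2 values were 3.76, 3.86 and 4.19 in KC and -0.01, -0.07 and 1.50 in KCS. The groups were clear of each other, KCS replicate 3 again standing nearest to KC. Nr5a2 fell by 3.46 ± 0.44 (SE; adjusted p = 0.000868; 95% interval -4.52 to -2.40), an 11-fold ratio. Its raw signal was 904 to 1114 in KC and 389, 403 and 984 in KCS. With spike-in scaling the difference was -0.57 with an adjusted p of 0.16, against 2.78 for the median of all probes.

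**Figure D2:**
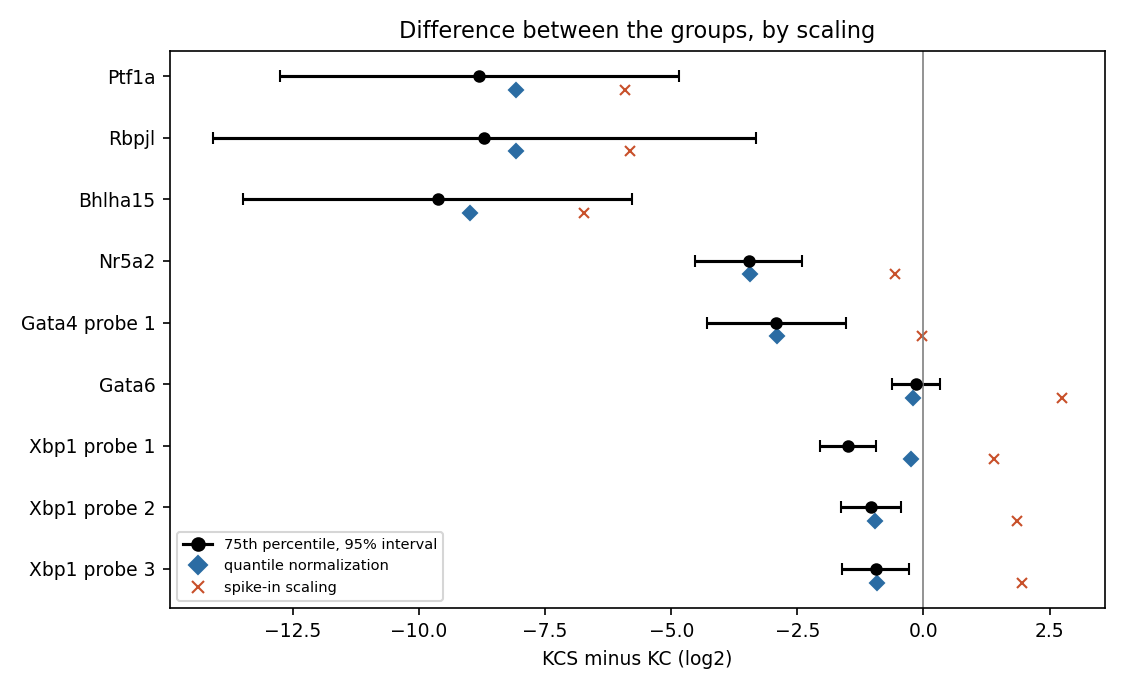
Difference between KCS and KC in log2 units (horizontal axis, 0 is no difference) for the 9 tested probes, with the 75th percentile scaling and its 95% interval (black), quantile normalisation (blue) and spike-in scaling (orange). Ptf1a, Rbpjl and Bhlha15 are below 0 in all 3. Gata6 and the 3 Xbp1 probes cross to values from 1.40 to 2.75 with the spike-ins, on which the median of all probes is 2.78.

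Gata4 and Gata6 are paralogues whose values differed here. The brighter Gata4 probe (A_55_P2028894) gave scaled log2 values of 1.70, 2.31 and 1.85 in KC and -2.12, -1.04 and 0.26 in KCS. All 6 were measured and the groups did not overlap. Gata4 fell by 2.92 ± 0.58 (SE; adjusted p = 0.00508), with -3.82 on slide 1 and -2.47 on slide 2. Spike-in scaling ended that call, at -0.03 with an adjusted p of 0.959. The other Gata4 probe (A_55_P2744782) was not well above background on any array and bears on neither side.

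Gata6 (A_55_P2806214) gave 1.82, 2.07 and 1.94 in KC and 1.59, 1.70 and 2.09 in KCS. The groups overlapped, KCS replicate 3 being the highest of all 6. Its difference was -0.15 ± 0.20 (SE; adjusted p = 0.551), with a 95% interval from -0.63 to 0.33. The sign turned to 0.21 with median centring, 0.32 with normexp on the median signals and 2.75 with spike-in scaling, near the median of all probes in the last. Within each array the ratio of Gata4 to Gata6 was -3.72, -2.76 and -1.84 log2 units from the KC mean in KCS replicates 1 to 3, against -0.13 to 0.23 in KC. That ratio too is free of any factor on the array, and the exact two-sided test gave the smallest p it can, 0.1 (0.15 adjusted).

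Mnx1 (A_55_P2503740) was not well above background on any of the 6 arrays. Raw signals were 1.88 to 2.37 in KC and 1.99 to 2.24 in KCS. Its mean scaled values of -4.98 and -7.53 lay near the lowest value of any probe (-5.43 to -5.25 in KC, -7.75 to -7.58 in KCS), so no difference is given. With no filter on dim probes Mnx1 would have counted as a seventh lower gene.

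Xbp1, the transcription factor that enlarges the endoplasmic reticulum, had 3 probes. The first (A_55_P1994032) gave scaled log2 values of 7.89, 8.22 and 8.53 in KC and 6.77, 6.46 and 6.91 in KCS. The second (A_52_P185079) gave 3.88, 4.30 and 4.65 against 3.20, 3.07 and 3.44, and the third (A_55_P2739653) gave 3.05, 3.68 and 4.0 against 2.63, 2.45 and 2.82. At each probe KC lay above KCS on all arrays, and the KCS arrays spanned 0.45, 0.37 and 0.37 log2 units. Xbp1 fell by 1.50 ± 0.23 (SE; adjusted p = 0.00192), 1.04 ± 0.25 (0.0106) and 0.94 ± 0.28 (0.0246) relative to the 75th percentile. In raw signal it went the other way, the first probe reading 15787 to 22554 in KC and 37293 to 42927 in KCS. With spike-in scaling the probes were higher by 1.40, 1.86 and 1.95. Quantile normalisation ended the call of the first probe, at -0.25 with an adjusted p of 0.392. The third lost its call without KC replicate 2 (adjusted p = 0.068), KC replicate 3 (0.067), KCS replicate 1 (0.0604) or KCS replicate 2 (0.0838). The 3 probes share the gene's transcripts and are not replicates.

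Setdb1 itself (1 probe) read -0.91, -1.05 and -0.32 in KC and -0.28, -0.44 and -0.55 in KCS, a difference of 0.33 ± 0.24 (adjusted p = 0.27). The sources used here do not say whether the probe lies in the deleted stretch, so it checks nothing about the genotype.

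The digestive enzyme genes went the same way as the 6 factors that fell, and serve as the check on the acinar label. All 23 acinar enzyme genes on the array fell, with a median of -10.90, and their summed level in units of the 75th percentile was 57200 to 67160 in KC against 4.25, 26.3 and 3605 in KCS replicates 1 to 3. In KC all 23 were well above background on every array, and in KCS 10, 20 and 23 were. Pnlip (pancreatic lipase) and Zg16 (a granule protein) had the lowest fitted differences, -16.56 ± 1.17 and -14.93 ± 2.96, but each was measured on 1 KCS array only, so neither these sizes nor their rank is exact; Ctrb1 and Cela1 (chymotrypsinogen and elastase) fell least, by 8.54 ± 2.62 and 7.63 ± 1.29. The list count was 15 without KCS replicate 2 and 23 without KCS replicate 3. The median enzyme gene read -5.32, -1.07 and 6.68 in KCS replicates 1 to 3, where the lowest signal well above background was -5.41, -5.41 and -5.23. These genes bear out the acinar label in KC but not in KCS replicates 1 and 2. In bulk RNA, fewer acinar cells and less RNA per acinar cell cannot be told apart, and that holds for every factor above.

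**Figure D3:**
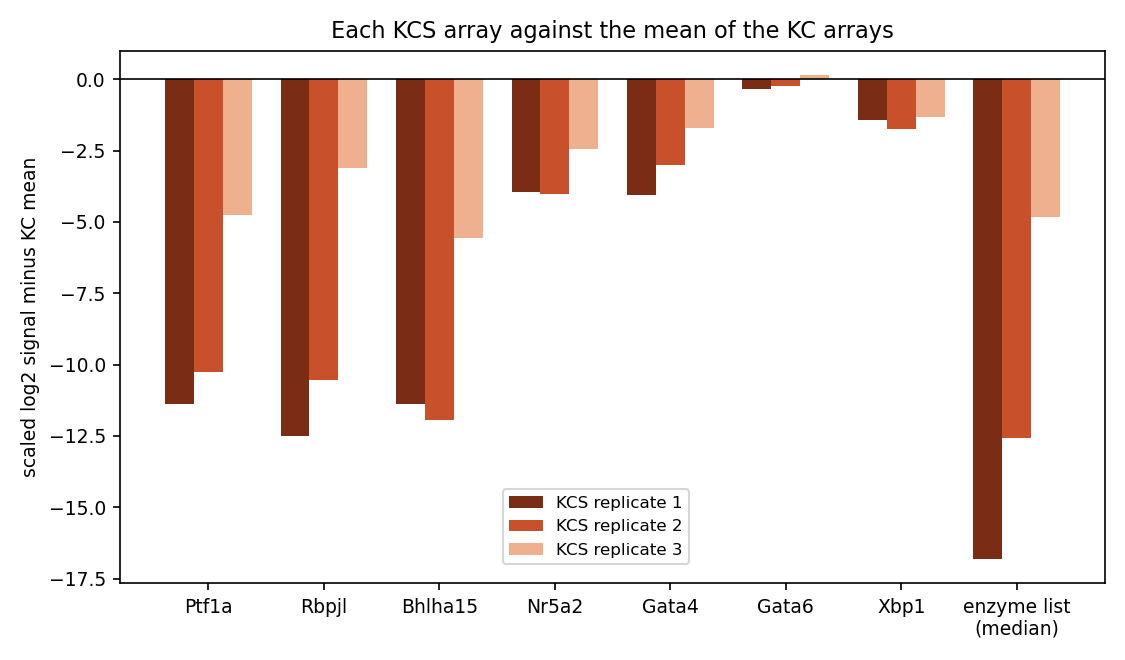
Scaled log2 signal of each KCS array minus the KC mean (vertical axis), for the 7 tested factors at their brightest probe and for the median of the 23 enzyme genes. Replicates 1, 2 and 3 are the dark, middle and light bars. KCS replicate 3 is nearest to KC for each factor on this scale, from -5.55 at Bhlha15 to 0.15 at Gata6, as it is for the enzymes. The bars of Ptf1a in replicates 1 and 2 and of Rbpjl in replicate 1 come from spots not well above background. Their heights are no exact sizes.

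Markers of other cells moved between the groups as well. All 13 fibroblast and stellate cell genes rose, with a median of 3.22 and a summed level of 220 to 309 in KC against 1565 to 1934 in KCS. Timp1 and Fn1 led them (6.50 and 4.03), and Dcn and Col3a1 were least changed (0.79 and 1.79). Of 10 macrophage genes, 9 rose, with a summed level of 56 to 84.2 against 341 to 482. Among them Fcgr1, not well above background in KC, was at least 56.3-fold higher, and Lyz2 rose by 5.54 and Csf1r by 3.01. Itgam did not pass (-0.90, limma adjusted p = 0.107). In this list 1 gene was called lower with array weights, a replicate block, slide as a factor, the second slide alone or KC replicate 1 left out. Of 8 endothelial genes, 7 rose, at summed levels of 17.1 to 19.8 against 31.3 to 72.8. Vwf (2.73) and Eng (1.93) were highest, Kdr rose by 0.88, and Pecam1 did not pass (0.37). Their count was 4 without KCS replicate 1 or without KCS replicate 2.

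The 5 mesothelial genes held 2 that rose, Wt1 by 3.50 the most, with Lrrn4 (1.41), Upk1b (1.27) and Upk3b (0.89) not passing. Their summed level was 2.34 to 6.01 against 13.7 to 21.6, and the count ranged from 1 (KC replicate 3 or either of KCS replicates 1 and 3 left out) to 4 without KC replicate 2. Of 9 B and plasma cell genes, 5 rose, at 1.25 to 1.57 against 18.7 to 21.2. Sdc1, which epithelium makes too, rose by 4.43 and Jchain, not well above background in KC, was at least 3.79-fold higher, while Cd79a (-1.33) did not pass. Without KC replicate 1, or on the second slide alone, 1 gene of this list was called lower. Among 11 ductal genes 5 rose and 2 fell, at a summed level of 64.8 to 86.9 against 277 to 378. Krt7 (5.39) and Car2 (4.25) rose, and Muc1 (-2.50) and Onecut1 (-1.32) fell, the count of 2 becoming 1 without KC replicate 2 or KCS replicate 2. Of 14 islet genes, 11 fell on the 75th percentile scale, from summed levels of 930 to 1079 to levels of 148 to 255, with the lowest fitted values at Pcsk1 (-3.79) and at Pax6 (-3.57, with 1 KCS array well above background, so no exact size), and with Isl1 (-0.06) and Chgb (0.23) not passing. On the spike-in scale 8 islet genes were higher and 1 lower, and 10 ductal genes were higher and none lower. There 30646 of all 34485 probes tested were higher. The list medians on that scale were 1.01 for islet and 4.92 for ductal genes, beside 2.97 for all named genes. The part that these other cells play in the differences of the 8 factors was not tested.

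Of 13 tested partners of the factors, 8 rose, 3 fell and 2 did not pass, with a median of 1.0 beside 0.07 for all named genes. The E protein genes Tcf3, Tcf4 and Tcf12, whose products pair with PTF1A and MIST1, all rose, Tcf3 by 1.21 ± 0.16. Id3, whose product takes E proteins away from such partners, rose by 2.43 ± 0.34 (adjusted p = 0.00129). Zfpm2, a cofactor of GATA factors, was not well above background in KC and was at least 2.81-fold higher. Its brighter paralogue Zfpm1 went the other way, by -0.93 ± 0.28 (limma adjusted p = 0.0257). Nr0b2 encodes SHP, a receptor that represses NR5A2, and fell by 4.34 ± 1.0, with 1 KCS array well above background. Ern1 encodes the IRE1 enzyme that splices Xbp1 and fell by 2.02 ± 0.23. With spike-in scaling 12 of the partners were called higher and none lower, where 30646 of all 34485 probes tested were higher and 873 lower.

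Genes known to depend on MIST1 all fell, 6 of 6, with a median of -3.24. Atp2c2 (-8.30 ± 1.24), a Golgi calcium pump, and Rab26 (-7.17 ± 0.66), a granule GTPase, fell most, each measured on 2 of the 3 KCS arrays. The granule GTPase Rab3d (-2.66 ± 0.31) and Ccpg1 (-2.15 ± 0.18) fell least. On the spike-in scale 2 of the 6 were lower and 1 was higher, where 873 of all 34485 probes tested were lower and 30646 higher.

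Of 20 XBP1 target genes of the endoplasmic reticulum, 14 fell, 1 rose and 5 did not pass, with a median of -1.38. Herpud1, a factor of protein disposal, fell by 3.91 ± 0.21, and Srpr, the receptor for the signal recognition particle, fell by 2.74 ± 0.18. The chaperones Pdia3 and Pdia4 stood at the other end, Pdia3 rising by 1.13 ± 0.27 and Pdia4 not passing (0.77 ± 0.29, adjusted p = 0.0597). On the spike-in scale 16 were higher and 1 lower, so the direction of this list depends on the scaling in the way that of Xbp1 does. Without KC replicate 2 or KCS replicate 2 the count of those higher was 2.

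Other lineage factors of the pancreas were divided, 7 of 16 lower, 4 higher and 5 not passing, with a median of -1.05. Nkx2-2, an islet and endocrine progenitor factor, fell by 4.63 ± 0.56 and Foxa3 by 2.87 ± 0.45. Onecut2 rose by 4.68 ± 0.26. Foxa1 was not well above background in KC and at least 1.19-fold higher. The higher count was 2 without KCS replicate 1. On the spike-in scale 13 were higher and 1 lower, where 30646 of all 34485 probes tested were higher. The list's median there was 1.84, beside 2.97 for all named genes. Onecut1, Sox9 and Nkx6-1 are among the genes that stand in this list and in a marker list above.

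**Figure D4:**
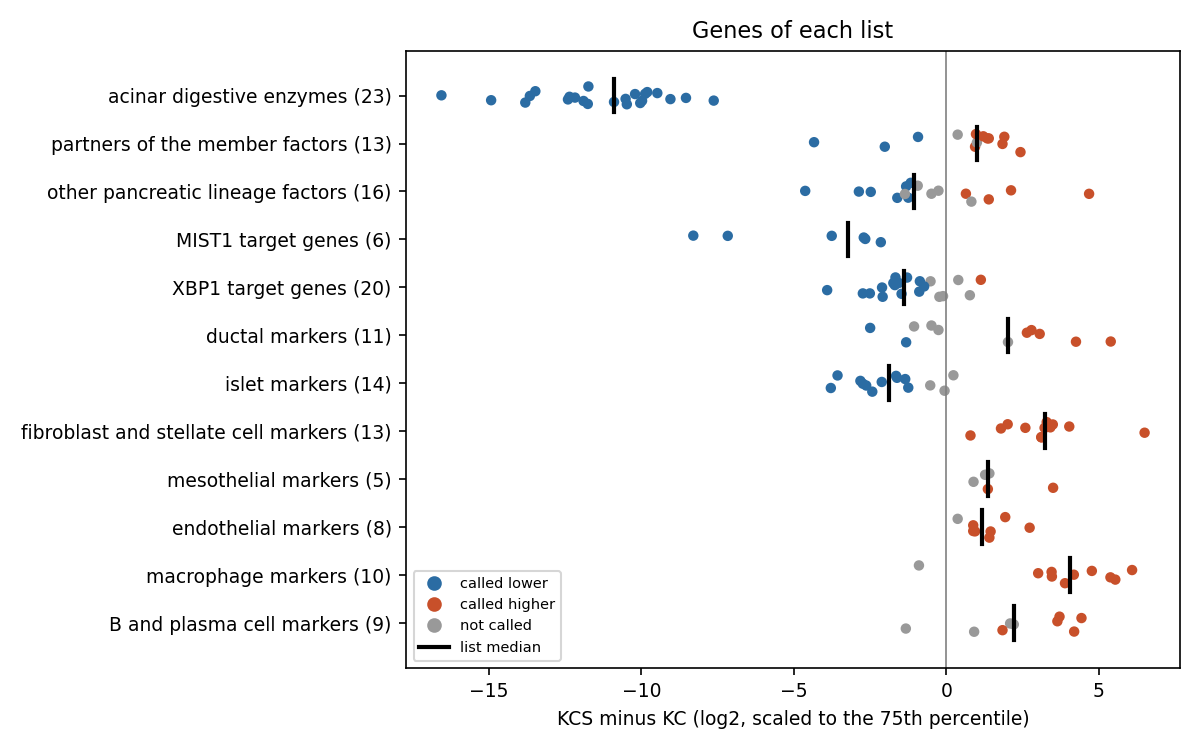
Difference between KCS and KC in log2 units (horizontal axis, scaled to the 75th percentile) for each tested gene of the 12 lists, with the number tested in parentheses. Blue points were called lower, orange points higher and grey points neither, and the black bar is the list's median. The enzyme genes lie lowest, at a median of -10.90, and the partners spread on both sides of 0. With spike-in scaling all points move right, the median of all named genes going from 0.07 to 2.97.

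Among 16256 other named genes, those whose profile over the 6 arrays was closest to each factor were found by the root mean square difference of centred log2 values, which describes likeness on 6 arrays and nothing more. For Ptf1a these were Gm34336 (0.61) and Klk1b22 (0.66). Rbpjl was matched by Cabp2 (0.50) and the colipase gene Clps (0.52), and Bhlha15 by Klk1b22 and the amylase gene Amy2a4 (0.52 each). Nr5a2 lay closest to Igfals (0.17) and H2al1e (0.19), and Gata4 to Scml4 (0.25) and Muc1 (0.26). Gata6 ran with Ppa2 (0.06) and Dtymk (0.07), and Xbp1 with Gm35771 (0.08) and Oxtr (0.10). The distances take spots not well above background, as for Ptf1a and Rbpjl, at their measured values. Gm34336, Cabp2 and Amy2a4 lay below the lowest signal well above background (-5.41) in KCS replicates 1 and 2, and H2al1e did in replicate 1. Distances and ranks that involve these genes are therefore not exact. Rbpjl and Clps show what such likeness looks like: Clps read 11.64, 11.37 and 11.49 in KC and -2.04, -0.15 and 8.25 in KCS, with the same order of KCS arrays as Rbpjl.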

How the data were processed

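Total RNA of 6 samples was amplified, labelled with Cy3 and scanned on 6 one-colour Agilent arrays, per the labels' protocols. The deposited intensity values are processed signals from Agilent Feature Extraction 12.0.3.1, per the file headers, which name build mm9. The authors' deposited value table holds log2 values per array. To compare the 2, scanner values with outlier spots kept were scaled to the 75th percentile. Each probe was then centred on its median over the 6 arrays. Against these values the table showed the same direction and a log2 scale (r of 0.9999993 or more), so this centring reproduced it. Its column medians were -0.01, 0.05 and 0.10 in KC and -0.05, -0.03 and -0.04 in KCS.

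Of 62976 spots per array, 3671 controls and 88 to 140 outlier spots were left out, and none was saturated. Spots of a probe were averaged, and each array's 75th percentile was subtracted on the log2 scale. A probe had to be well above background on 3 or more arrays, and the 34485 that were so were fitted with limma 3.58.1 in R 4.3.3, with no covariate and Benjamini-Hochberg adjustment over all of them. Probe names were matched to RefSeq gene symbols by transcript accession, which named 33767 of 56605 probes. "At least" folds set the brighter group's mean against, on each array, the higher of the probe's own value and the lowest signal well above background (log2 -3.09 to -2.92 in KC, -5.41 to -5.23 in KCS). The number of arrays limits the precision.

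Listed genes were taken at their brightest probe. The text names every member probe, the 2 highest and 2 lowest differences of each list, Setdb1 and the 2 closest profiles per factor. Rbpj and the E protein genes were added as partners in PTF1, and Zfpm1 beside Zfpm2, after their values were seen. The members and the lists were chosen with earlier results of these data known. Tested on simulated data of 34483 probes, the fit recovered 0%, 6%, 58% and 92% of 50 probes each, changed by log2 0.5, 1, 2 and 4. Only these probes changed in the simulation, while 20373 were called in the data. The adjustment was therefore stricter there, and these shares do not give the rate of recovery in the data. Alternatives were scaling, filters, variance models, slide, replicate block and arrays left out. The name of the oncogenic allele and the values of some listed genes are not reported here.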

Additional observations from a re-analysis of the deposited data

How the results depend on the processing

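Ptf1a, Bhlha15, Nr5a2 and Gata4 kept their direction in every alternative run, as did Rbpjl, and Ptf1a and Bhlha15 kept their calls in each in which they were fitted. Sizes moved more. Ptf1a, Rbpjl and Bhlha15, at -8.80, -8.71 and -9.63 in the main fit, were at -5.11, -6.39 and -7.18 with normexp on the median signals. With the spike-ins they were at -5.91, -5.81 and -6.73. Rbpjl lost its call with trend and robust variances (-8.71) and on the second slide alone (-6.89), with a range of -11.51 to -6.82 when 1 array was left out. With spike-in scaling Nr5a2 was at -0.57 and Gata4 at -0.03, neither called, and Gata6 was called higher at 2.75. Gata6 was also above 0, but not called, with median centring (0.21) and normexp on the median signals (0.32). Of the Xbp1 probes, the first was at -0.25 with quantile normalisation and 1.40 with the spike-ins, the second at 1.86 with the spike-ins and -0.33 with normexp, and the third at -0.59 with median centring, 1.95 with the spike-ins, -0.29 with normexp, and from -1.20 to -0.73 with 1 array left out. The cause was not tested. Member genes called lower numbered 6 in the main fit and 3 with the spike-ins. They numbered 5 with quantile normalisation, trend and robust variances, the second slide alone, KCS replicate 2 left out, or an adjusted p of 0.01. Where all 6 arrays had to be well above background, which left out Ptf1a and Rbpjl, 4 were lower. With no filter on dim probes 7 were. Probes called numbered 20373, against 31519 with the spike-ins and 38161 with no filter on dim probes. Of these, 9351 were higher with no filter, as were 8182 of 27586 with normexp.

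The enzyme list's count of 23 became 15 with trend and robust variances, 13 on the second slide alone, 10 where all 6 arrays had to be well above background and 11 at an adjusted p of 0.01. With normexp, 2 of the B and plasma cell genes were higher and 2 lower.

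Same-numbered arrays deviated together with correlations of 0.31, 0.04 and 0.12, so the numbers were not taken to pair the samples; a replicate block gave 20321 calls and changed no call of a member, and KC replicates 2 and 3 correlated best with other numbers. The planned normexp on mean signals was not run, because the scanner files used here have no such column; median signals took its place, chosen after seeing the data. For Ptf1a and Rbpjl in KCS, signal over background limits the values.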
